A study of Bos taurus with 6 samples.

Results

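The genes described here are the 43 with the highest read levels in the lactating bovine mammary gland once 11 genes treated as the major milk genes were set aside. They were selected on their mean level over all 6 heifers, at 500 CPM or more, where CPM is a gene's count multiplied by 1000000 and divided by the total count of the heifer. The 43 genes were found among 24579 genes counted. Because the level chose them, level and rank are given as a description with no test, and the comparison of the groups played no part in the selection.

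RNA was sequenced from mammary biopsies of Holstein heifers, taken 21 days after their first lactation began. The 3 in utero heat-stressed heifers (IUHT-H, 9196, 9203 and 9204) were born to dams that had shade only in late gestation. The 3 in utero cooled heifers (IUCL-H, 9202, 9214 and 9223) were born to dams that had shade, fans and soakers, and the fourth IUCL-H of the study was not analysed here. After birth both groups were managed alike, so that the exposure ended before the sampled tissue had developed into a secreting gland.

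The secretory epithelium of the lactating mammary gland lines the alveoli and makes the proteins, fat and lactose of milk. A small set of milk protein transcripts fills most of its messenger RNA, and the genes that come next in abundance in such tissue usually include those for protein synthesis, secretion and energy metabolism. A biopsy also holds myoepithelium, stroma, vessels and leukocytes, and fewer cells of a type cannot be told apart from less RNA per cell. The counts carry Ensembl identifiers only, and no table used here paired any of the 43 identifiers with a gene name. The genes are therefore given by identifier, their functions are not stated, and the tissue label could not be checked against named cell markers.

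IUHT-H libraries held 75754791 to 84969285 counts and IUCL-H libraries 91696849 to 101361294. Every IUHT-H total was thus below every IUCL-H total. Counting error was small at this depth. The fewest counts of any of the 43 genes in a heifer were 26543, for ENSBTAG00000015131 in IUHT-H 9204, which gave 312 CPM with an exact 95% Poisson interval of 309 to 316 that covers counting error only.

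The 43 genes lay below only some of the genes set aside. Of these 11, 6 held ranks 1 to 6 and stood above all 43. ENSBTAG00000013417 had more counts than the set-aside gene ENSBTAG00000015980, which had a mean of 5218 CPM and rank 8. In the same way, 9 of the 43 were above ENSBTAG00000016819 at 1488 CPM and 17 were above ENSBTAG00000045728 at 909 CPM. The remaining set-aside genes were below all 43, ENSBTAG00000017567 at 282 CPM and ENSBTAG00000026356 at 18.2 CPM. CPM is not divided by gene length, so that the ranks order genes by reads and not by transcripts.

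Together the 43 genes took 5.85%, 5.53% and 5.23% of all counts in IUCL-H 9202, 9214 and 9223. For IUHT-H 9196, 9203 and 9204 the shares were 5.62%, 6.23% and 5.08%. IUCL-H averaged 5.54% ± 0.312 and IUHT-H averaged 5.64% ± 0.573 (SD, n = 3 each), and the groups overlapped. The 11 set-aside genes ranged from 63.3% of a heifer's counts to 73.1%, and all other genes from 21.8% to 30.5%. Within the counts left after setting the 11 aside, the 43 genes made up 17.99% ± 0.933 in IUCL-H and 17.2% ± 1.58 in IUHT-H (SD, n = 3 each). The group with the higher mean share thus depended on the denominator, and the groups overlapped on both. It also rested on a single gene. Without ENSBTAG00000001292, the most variable of the 43, the mean share of all counts was 5.31% in IUHT-H, below the 5.43% in IUCL-H.

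Levels fell steeply within the 43. A single gene was above 10000 CPM, 5 lay between 2000 and 10000, 8 between 1000 and 2000, and 29 between 500 and 1000. In the single heifers, between 34 and 43 of them reached 500 CPM, with the fewest in IUHT-H 9204 and all 43 in IUCL-H 9202. In all 6 heifers, 27 did so.

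The most abundant was ENSBTAG00000013417. Its level was 13376, 11775 and 10578 CPM in IUCL-H 9202, 9214 and 9223, and 10355, 9742 and 12740 CPM in IUHT-H 9196, 9203 and 9204. It held rank 7 in every heifer, and no other gene of the 43 kept a fixed rank. Its share of the counts of the 43 ran from 15.6% in IUHT-H 9203 to 25.1% in IUHT-H 9204, so that both ends lay within 1 group.

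**Figure D1:**
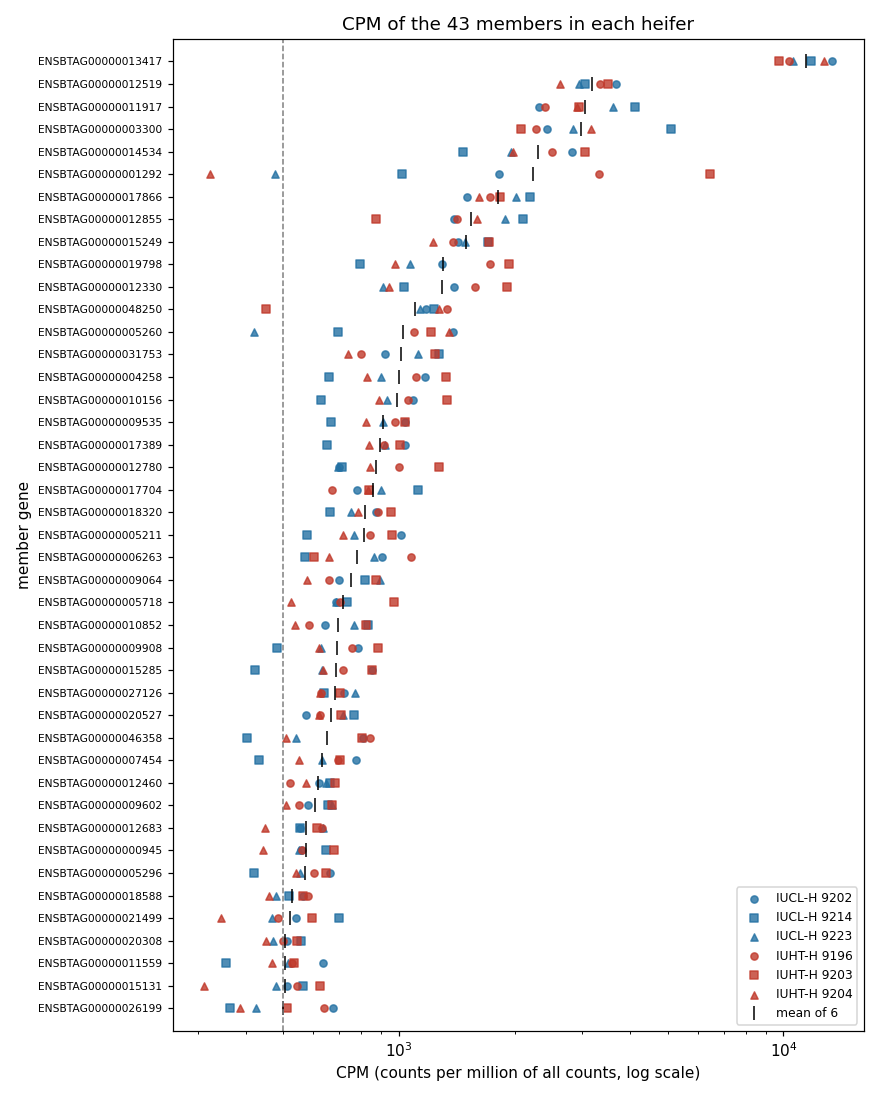
Level of each of the 43 genes in each heifer, in CPM on a log scale, ordered by mean level, with points for the 3 IUHT-H and the 3 IUCL-H. ENSBTAG00000013417 stands above the rest in all heifers, and ENSBTAG00000001292 is spread most widely, from 324 to 6442 CPM.

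The next 5 genes were close in mean level and differed in how the heifers were ordered. ENSBTAG00000012519 had 3674, 3042 and 2936 CPM in IUCL-H 9202, 9214 and 9223 and 3335, 3508 and 2631.8 CPM in IUHT-H 9196, 9203 and 9204. ENSBTAG00000011917 had 2321, 4124 and 3604 CPM in these IUCL-H and 2402, 2944 and 2901 CPM in these IUHT-H. For ENSBTAG00000003300 the values were 2433, 5086 and 2839 CPM in IUCL-H and 2274, 2079 and 3154 CPM in IUHT-H, in the same order. IUCL-H 9214 was the highest heifer for the latter pair, whereas IUCL-H 9202 was the highest for ENSBTAG00000012519. ENSBTAG00000014534 had 2828, 1468 and 1964 CPM in IUCL-H and 2507, 3050 and 1980 CPM in IUHT-H, with IUCL-H 9214 lowest. The means of ENSBTAG00000012519, ENSBTAG00000011917 and ENSBTAG00000003300 were 3188 ± 389, 3049 ± 699 and 2978 ± 1104 CPM (SD, n = 6), so that their order was within the spread between heifers.

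ENSBTAG00000001292 was the most variable of the 43. It had 1824, 1018 and 476 CPM in IUCL-H 9202, 9214 and 9223, and 3308, 6442 and 324 CPM in IUHT-H 9196, 9203 and 9204. Its highest and its lowest value were both in IUHT-H, 19.9-fold apart, and its rank ran from 8 in IUHT-H 9203 to 86 in IUHT-H 9204. IUHT-H averaged 3358 ± 3059 CPM, against 1106 ± 678 CPM for IUCL-H (SD, n = 3 each). The coefficient of variation (CV, the SD as a percent of the mean) over 6 heifers was 105%, beside 37.7% for the next most variable gene.

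Of the genes between 1000 and 2000 CPM, ENSBTAG00000017866, ENSBTAG00000012855 and ENSBTAG00000015249 led with means of 1813, 1545 and 1492 CPM. ENSBTAG00000019798 and ENSBTAG00000012330 followed with 1301 and 1295 CPM, and both were highest in IUHT-H 9203, at 1937 and 1909 CPM. In ENSBTAG00000048250, IUHT-H 9203 stood apart on the low side, with 451 CPM against 1139 to 1338 CPM in the other 5 heifers. ENSBTAG00000005260 had 1382, 696 and 422 CPM in IUCL-H 9202, 9214 and 9223, and 1094, 1212 and 1355 CPM in IUHT-H 9196, 9203 and 9204. Its CV was 59.3% within IUCL-H and 10.7% within IUHT-H, and the reverse held for ENSBTAG00000048250, with 4.21% and 48.4%. ENSBTAG00000031753 closed this range at a mean of 1016 CPM.

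From 1000 CPM down, the levels formed a continuous series. ENSBTAG00000004258, ENSBTAG00000010156, ENSBTAG00000009535, ENSBTAG00000017389, ENSBTAG00000012780 and ENSBTAG00000017704 had means from 1000 to 856 CPM and completed the 20 highest. The threshold fell at no gap. The 3 genes just inside it were ENSBTAG00000011559 and ENSBTAG00000015131, both at 506 CPM, and ENSBTAG00000026199 at 501 CPM. Just outside were ENSBTAG00000021466 at 499.8 CPM, ENSBTAG00000009757 at 499.6 CPM and ENSBTAG00000014835 at 495 CPM.

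Ranks moved over the heifers for all but 1 of the 43 genes. The lowest and highest rank of a gene over the heifers were a median of 19 places apart, and 35 genes stayed within the top 60 in every heifer. By mean CPM the 43 ranked from 7 to 52, so that a place in the top 60 follows in part from the selection. None fell past rank 100, and the lowest rank was 89. Besides ENSBTAG00000001292, a wide range was seen for ENSBTAG00000048250, which ranked 17 to 21 in 5 heifers and 77 in IUHT-H 9203.

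**Figure D2:**
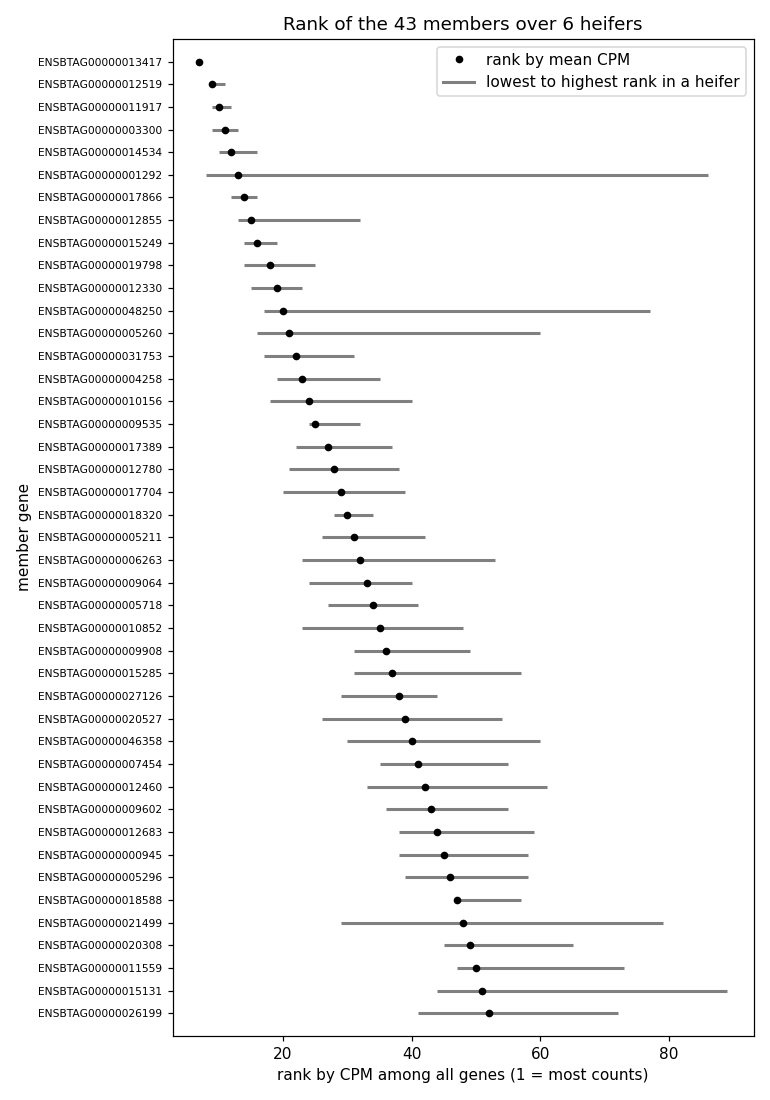
Rank by CPM among all genes, with rank 1 for the most counts, for each of the 43 genes: points give the rank by mean CPM and lines run from the lowest to the highest rank in a heifer. The line of ENSBTAG00000001292 runs from 8 to 86, while ENSBTAG00000013417 is at 7 throughout.

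The median CV of the 43 genes over 6 heifers was 19.9%, with quartiles of 13.6% and 25.9%. It was 18.1% for the 435 genes between 100 and 500 CPM and 9.12% for the 11 set-aside genes. With the set-aside genes left out of the total, these medians became 17.0%, 13.2% and 18.7%, so that the steadiness of the set-aside genes held only against the total that they themselves dominate. In CPM the steadiest gene was ENSBTAG00000020308, at 513, 559 and 472 CPM in IUCL-H 9202, 9214 and 9223 and 501, 544 and 452 CPM in IUHT-H 9196, 9203 and 9204. Its CV was 8.02%, and ENSBTAG00000027126, ENSBTAG00000018588 and ENSBTAG00000012460 were also under 10%, with ENSBTAG00000020527 next at 10.9%. This order also depended on the total. Without the set-aside genes, ENSBTAG00000018588 and ENSBTAG00000012519 were steadiest at 4.96% and 5.32%, and ENSBTAG00000020308 was at 11.4%. At the other end, ENSBTAG00000003300, ENSBTAG00000019798 and ENSBTAG00000012330 had CVs of 37.1%, 34.4% and 31.0% in CPM. Without the set-aside genes these were 45.8%, 23.2% and 19.0%. There ENSBTAG00000012855 and ENSBTAG00000048250, with 27.8% and 29.6% in CPM, were at 36.4% and 34.4%. In CPM, the highest heifer exceeded the lowest by more than 2-fold for 14 of the 43 genes, and the median ratio was 1.78. The same held for 67 of the 435 genes between 100 and 500 CPM, with a median ratio of 1.63. Without the set-aside genes, it held for 7 of the 43 and 43 of the 435, with median ratios of 1.64 and 1.45.

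Within groups, the median CV was 17.3% in IUHT-H and 20.5% in IUCL-H (n = 3 each). The CV was larger in IUHT-H for 22 of the 43 genes. Leaving the set-aside genes out of the total changed this to 14 of 43, with medians of 12.2% in IUHT-H and 19.6% in IUCL-H. The median of the 43 was thus larger in IUCL-H on both totals, whereas the count of genes moved with the total. The count also moved for the 435 genes between 100 and 500 CPM. It was 255 in CPM and 169 without the set-aside genes. In CPM their medians were in the reverse order, at 18.1% in IUHT-H and 15.6% in IUCL-H. Without the set-aside genes their median was larger in IUCL-H, as for the 43. No test of these differences was made.

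**Figure D3:**
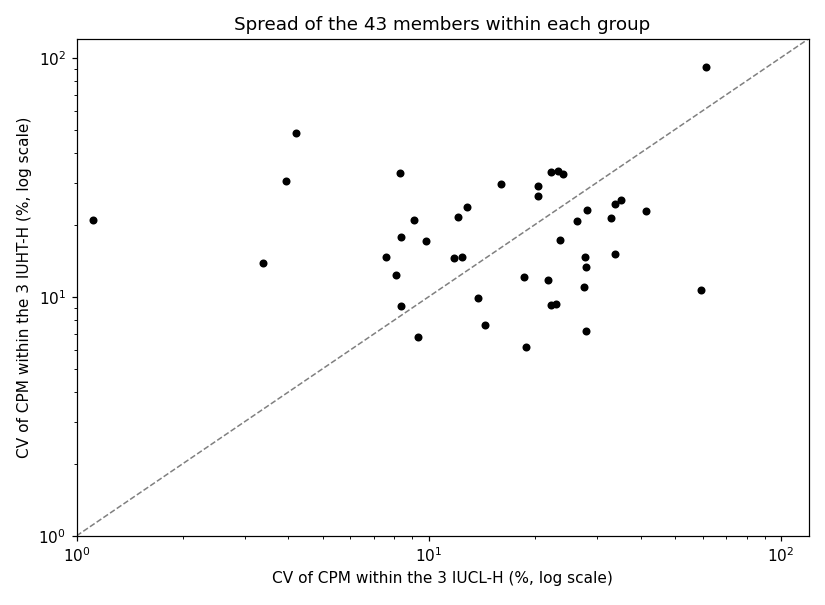
Coefficient of variation of CPM within the 3 IUHT-H against that within the 3 IUCL-H, in percent on log scales, with 1 point per gene and a dashed line of equality. Of the 43 points, 22 lie above the line, and the point furthest to the left is ENSBTAG00000012780 at 1.11% in IUCL-H.

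Each gene has 1 highest and 1 lowest heifer, so that a heifer stands at an end of the range for 33.3% of genes on average. IUCL-H 9214 was the highest or the lowest heifer for 30 of 43 genes on the scale without the set-aside genes, 15 at each end. On that scale, the 15 high genes exceeded the mean of the other 5 heifers by a median ratio of 1.38, with ENSBTAG00000003300 furthest at 2.15. The 15 low genes had a median ratio of 0.734, with ENSBTAG00000015285 and ENSBTAG00000019798 lowest at 0.639 and 0.640. IUCL-H 9214 was at an end for 69.8% of the 43 genes, for 51.5% of the genes between 100 and 500 CPM and for 41.9% of all genes tested. These shares are not independent, since genes of 1 library share its depth and composition. In CPM, IUHT-H 9203 was the highest heifer for 16 genes, or 37.2% of the 43, beside 33.9% of all genes tested. IUCL-H 9214 was the lowest for 16 genes, or 37.2%, beside 25.3% of all genes tested, and IUHT-H 9204 for 15 genes, or 34.9%, beside 49.8%. On the scale without the set-aside genes, IUHT-H 9204 was the lowest for only 4 genes, or 9.3%, beside 23% of all genes tested. There IUHT-H 9196 was the lowest for 12 genes, or 27.9%, beside 7.82%. The share of counts in the set-aside genes was 63.3% in IUHT-H 9203, 70.9% in IUCL-H 9214 and 73.1% in IUHT-H 9204, and its part in these counts was not tested.

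**Figure D4:**
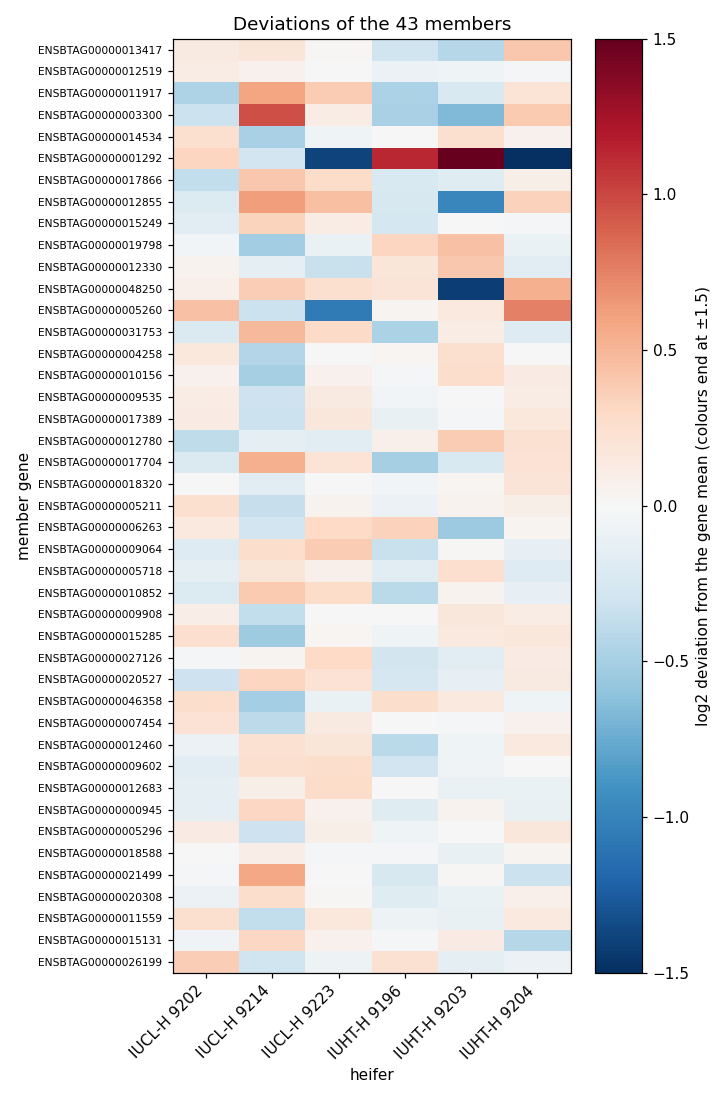
Deviation of each of the 43 genes from its mean over the 6 heifers, on a log2 scale, by heifer, from levels scaled by the total without the 11 set-aside genes. IUCL-H 9214 is highest or lowest for 30 of the 43, and ENSBTAG00000001292 has the widest deviations.

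Whether maternal heat stress altered the levels of these genes was addressed by comparing IUHT-H with IUCL-H. None of the 43 genes passed the study's cut-off, an unadjusted P-value of at most 0.01, in edgeR's quasi-likelihood test, and 1 was below 0.05, beside 2.54% of all genes tested. Among all 14724 genes tested, 63 or 0.428% passed the cut-off, a background at which less than 1 gene of the 43 would be called. None of the 43 had an adjusted p-value below 0.05, and none of all genes tested did (0%). At the cut-off, edgeR's exact and likelihood ratio tests also called 0 of the 43, beside 0.733% and 0.761% of all genes, and DESeq2 called 1, beside 0.843%. Since no call was made, the values below describe the heifers, and a P-value that misses the cut-off does not show that the groups were alike.

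The log2 fold change of IUHT-H relative to IUCL-H was negative for 29 of the 43 genes and positive for 14, with a median of -0.12, beside 0.0028 over all genes tested. It was negative for 7271 of all 14724 genes tested and for 244 of the 435 genes between 100 and 500 CPM. The median standard error of the 43 was 0.20. For 31 of the 43 the fold change was within 0.3 of 0 in either direction. This balance depended on the scaling. With library size only, without TMM factors, 21 of the 43 were positive and the median was -0.0016, while the median over all genes tested became 0.13. In both scalings the median of the 43 was below that of all genes. So was the median of the genes between 100 and 500 CPM, at -0.027 with TMM factors and 0.099 with library size only. These differences were not tested.

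ENSBTAG00000012780 had the smallest P-value of the 43. Its level was 702, 711 and 696 CPM in IUCL-H 9202, 9214 and 9223, and 1000.4, 1274 and 844 CPM in IUHT-H 9196, 9203 and 9204. All IUHT-H were above all IUCL-H, and it was the only one of the 43 whose groups did not overlap in CPM, where 2.8% of all genes tested did not overlap. In TMM-normalized CPM, 3 of the 43 did not overlap, beside 6.06% of all genes, and with the total without the set-aside genes 2 did not, beside 6.1%. IUHT-H averaged 1040 ± 218 CPM, against 703 ± 7.82 CPM for IUCL-H (SD, n = 3 each). The narrow spread in IUCL-H held in CPM only. In TMM-normalized CPM the means were 990 ± 131 in IUHT-H and 736 ± 84.7 in IUCL-H (SD, n = 3 each). With TMM factors, the log2 fold change was 0.43 with a standard error of 0.18 (adjusted p = 0.999 by edgeR's quasi-likelihood test, adjusted p = 0.9998 by DESeq2). With library size only it was 0.56. In CPM, the two-sided exact permutation test gave P = 0.1, the smallest value that 3 against 3 heifers allow. Groups that do not overlap must give this value, so that it adds nothing to the lack of overlap. It was this gene that DESeq2 placed past the unadjusted cut-off.

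The largest positive fold change was that of ENSBTAG00000001292, with a log2 value of 1.38 and a standard error of 0.80 (adjusted p = 0.999, edgeR). Its size rested on single heifers. Without IUHT-H 9203 it was 0.51, and without IUHT-H 9204 it was 1.90 and passed the study's cut-off. ENSBTAG00000005260 came next at 0.53 ± 0.38 (log2, SE), with 0.95 without IUCL-H 9202, 0.24 without IUCL-H 9223 and 0.22 without IUHT-H 9204. IUCL-H 9202 was above all IUHT-H in CPM, but not in TMM-normalized CPM, where it had 1259.5 and IUHT-H 9204 had 1669. On the negative side, ENSBTAG00000003300 and ENSBTAG00000012855 both had -0.55, with standard errors of 0.43 and 0.38. In both, the values of the groups overlapped. ENSBTAG00000003300 was at -0.086 without IUCL-H 9214, -0.35 without IUHT-H 9203 and -1.003 without IUHT-H 9204. For ENSBTAG00000012855 the values without these heifers were -0.36, -0.27 and -0.98. ENSBTAG00000012855 had 1389, 2106 and 1887 CPM in IUCL-H 9202, 9214 and 9223 and 1419, 875 and 1596 CPM in IUHT-H 9196, 9203 and 9204, so that the overlap came from IUCL-H 9202, below IUHT-H 9196 and 9204. After ENSBTAG00000012780, the smallest P-value was that of ENSBTAG00000019798, with a log2 fold change of 0.41 ± 0.20 (SE). For these genes other than ENSBTAG00000012780, the exact permutation P-values in CPM were between 0.3 and 0.4. The fold changes carry TMM factors, whereas these P-values do not. For ENSBTAG00000019798 the groups overlapped in CPM but not in TMM-normalized CPM. There the lowest IUHT-H (9204) had 1207 and the highest IUCL-H (9202) had 1183. The permutation test was not run on that scale.

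**Figure D5:**
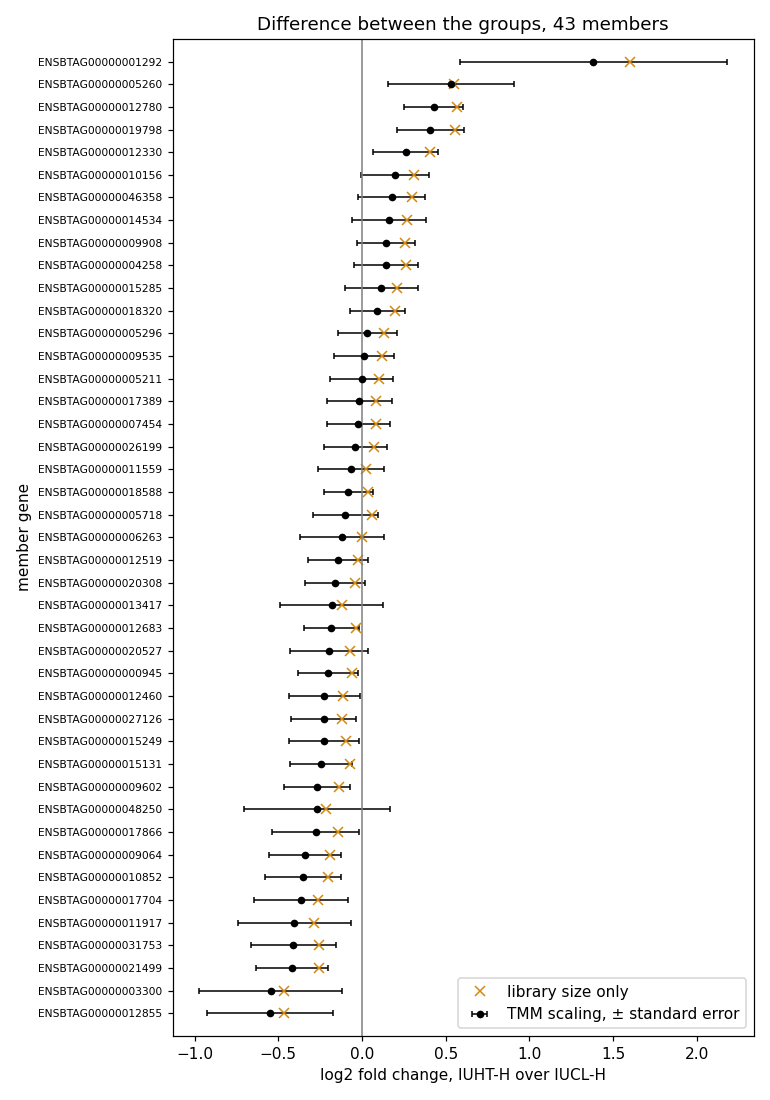
Log2 fold change of IUHT-H relative to IUCL-H for each of the 43 genes, with bars of 1 standard error, from edgeR's quasi-likelihood fit. Values run from -0.55 to 1.38, 29 are below 0, and none passed the study's cut-off.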

How the data were processed

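The authors checked paired-end reads with FastQC, mapped them with TopHat2 2.0.13 and deposited raw counts of reads per Ensembl gene, 1 file per heifer. HTSeq and the build UMD3.1 are named in the submitters' processing notes, whereas the methods name bosTau7, and the annotation release is not given in the sources used here. Depth is given with the results. No coordinates, sequences or gene lengths were used.

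CPM was computed from the original totals. Genes kept by filterByExpr (14724, all 43 members included) were compared with the quasi-likelihood test of edgeR 4.0.16 (R 4.3.3) with TMM factors, no covariates and Benjamini-Hochberg adjustment over all genes tested. Single genes were also compared in CPM by the two-sided exact permutation test, added after the data were seen. Standard errors are the fold change divided by the square root of F. The test was checked on simulated counts. Heifers are the replicates, and the labels give no batch.

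The members and lists were chosen with earlier results of these data known. The rule for named genes was the 20 most abundant members, the 5 with the highest and lowest CV, the 5 smallest P-values, the 5 largest changes each way and the 3 genes on each side of 500 CPM. Because no names were paired, changes are given for fewer of them, and lists of pathway genes and cell markers could not be applied. Genes named in the study's text were to be left out. None of the 43 was matched to a name, and for the reference genes GAPDH and beta-actin this was not settled. Alternatives were other tests (DESeq2 1.42.0 included), scalings, filters and thresholds, and leaving out each heifer.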

Additional observations from a re-analysis of the deposited data

How the results depend on the processing

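With 3 heifers a group, several of these results moved when a single heifer was left out. An effect of depth, which differed between the groups, was not tested. Of the 43 genes, DESeq2 called 1 at the study's cut-off (ENSBTAG00000012780), beside 0.843% of all genes tested. Leaving out each heifer in turn called 0 to 1 of the 43 (1 without IUHT-H 9204, ENSBTAG00000001292), and 0 were called otherwise. Among all genes tested, 225 of 15070 were called without IUHT-H 9204. With a heifer left out, the calls ran from 38 of 14959 (without IUCL-H 9214) to 246 of 14869 (without IUCL-H 9202). The main fit called 63 of 14724. None of the 43 was called at adjusted p < 0.05 in any alternative, DESeq2 and edgeR's other tests included. Of all 14724 genes tested, edgeR's exact and likelihood ratio tests called 9 and 11 at this cut-off, and DESeq2 called 16. The other alternatives called 0 to 3 of all genes tested. Groups did not overlap for 3 of the 43 genes in TMM-normalized CPM (ENSBTAG00000012780 and ENSBTAG00000019798 higher in IUHT-H, ENSBTAG00000012519 lower), beside 6.06% of all genes tested. With the total without the 11 set-aside genes they did not overlap for 2, beside 6.1%, in place of 1 in CPM, beside 2.8%. The selection gave 27 genes when 500 CPM was required in each heifer, 14 at a mean of 1000 CPM, and 40 to 47 with a heifer left out. The members' summed share, a mean of 5.59%, was 17.6% of the total without the set-aside genes and 5.46% to 5.69% with a heifer left out. In alternatives chosen after seeing the data, it was 4.45% without the most abundant gene and 5.37% without the most variable. The median CV, 19.9%, was 17.0% in TMM-normalized CPM, 17.0% with the total without the set-aside genes and 15.0% to 21.8% with a heifer left out, the lowest without IUCL-H 9214. Among the fold changes of all 43 genes, the sign differed for 7 with library size only, for 3 to 5 with a heifer left out and for 0 in the other alternatives. None of the 6 genes whose fold changes are given was among them. The cause of these changes was not tested.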
